A study of Drosophila montana with 12 samples.

Results

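The genes described here are 7 genes with known roles in the growth of neurons and in synapses, measured in whole females of *Drosophila montana*: *RhoGAP100F*, *Liprin-alpha*, *wit*, *ko*, *sas*, *mbl*, and *smooth*. Each is represented by 1 contig of the *de novo* transcriptome that had been listed under neuron development after passing the study's test for day length, hereafter the listed contig, and by every other contig with the same blast hit. This gave 18 contigs of 31233 in all, 7 listed and 11 others. *RhoGAP100F* and *smooth* had no other contig, *sas* had 1, *Liprin-alpha*, *wit*, and *ko* had 2 each, and *mbl* had 4. Because the listed contigs were chosen on the difference between light cycles in diapausing females in these same libraries, that difference is given for them as a description. Calls on it are given to show how they depend on single libraries and on the test, and are no independent evidence.

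RNA was sequenced from pools of 10 whole females of 21 d of age in 12 libraries, 3 in each of 4 groups. Diapausing females (D) came from LD 16:8 (16 h light and 8 h dark) and from the critical day length (CDL), the light cycle at which some females of a line enter diapause and others do not. Nondiapausing females (ND) came from the CDL and from LD 22:2. The labels give the CDL as 17.5 h light and 5.5 h dark, which sums to 23 h, whereas the study's methods give a longer light phase. The isofemale line was 175OJ8 in every LD 16:8 and LD 22:2 library. At the CDL, both groups had 1 library of 175OJ8, 1 of 265OJ8, and 1 of 3OL8, so that the day length comparisons also differ in line. No mutation or agent was used in any group.

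Synapses release transmitter at active zones, where scaffold proteins hold calcium channels and vesicles in place. At the *Drosophila* neuromuscular junction the growth of this ending is set by a bone morphogenetic protein (BMP) signal that the muscle sends back to the motor neuron, and the routes of motor axons are set earlier by guidance and adhesion molecules. RNA-binding proteins then decide which splice forms of such genes a neuron or muscle makes. In female flies, reproductive diapause is an arrest of the ovaries before yolk is laid down. In whole flies, fewer cells of a type and less RNA per cell cannot be told apart.

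Diapausing libraries had 4679623 to 5764157 counted reads and nondiapausing libraries 2986505 to 6637623. Expression is given as CPM, the count per 1000000 counted reads after TMM scaling, and changes as log2 fold changes with the standard error (SE) of the GLM and a false discovery rate (FDR) adjusted over all 31233 contigs. FDR values are from edgeR's likelihood ratio test unless its quasi-likelihood (QL) test is named. The yolk protein genes *Yp2* and *Yp3*, made in fat body and ovary, followed the labels, as all 6 diapausing libraries lay below all 6 nondiapausing libraries for both. *Yp2* had 23.5 to 124 CPM in diapausing and 258 to 453 CPM in nondiapausing females, and *Yp3* had 102 to 493 CPM in diapausing and 848 to 1493 CPM in nondiapausing females. Of all contigs, 64.4% were called between all diapausing and all nondiapausing females, 33.4% higher and 31% lower, and every result on diapause state below stands against that background. Without TMM scaling the median log2 fold change of all contigs in this comparison moved by -0.34, and the calls became 6873 higher and 13042 lower, against 10442 higher and 9679 lower with it. At the CDL alone the calls without it were 4877 higher and 10681 lower, against 8037 higher and 7414 lower with it.

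The plainest feature of the listed contigs was a single library with far more reads than the rest. In 5 of the 7, *Liprin-alpha*, *wit*, *ko*, *sas*, and *mbl*, 1 library had at least 5 times the CPM of every other library, and the ratio to the next library ran from 27.4 to 296. The same was true of 124 of all 31233 contigs (0.397%), 69 with the high value in a diapausing and 55 in a nondiapausing library. The listed contigs had been chosen by a test on these same libraries, so 5 of 7 and 0.397% are not a like comparison. The high library was a different one for each of the 5 genes, always of diapausing females, which the choice of the contigs on a contrast between diapausing groups could bring about. The sixth gene, *smooth*, was high in both libraries of line 3OL8. *RhoGAP100F* alone of the 7 had no such library. None of the 11 other contigs, which had not been chosen by that test, had one, and their highest ratio was 1.21.

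**Figure D1:**
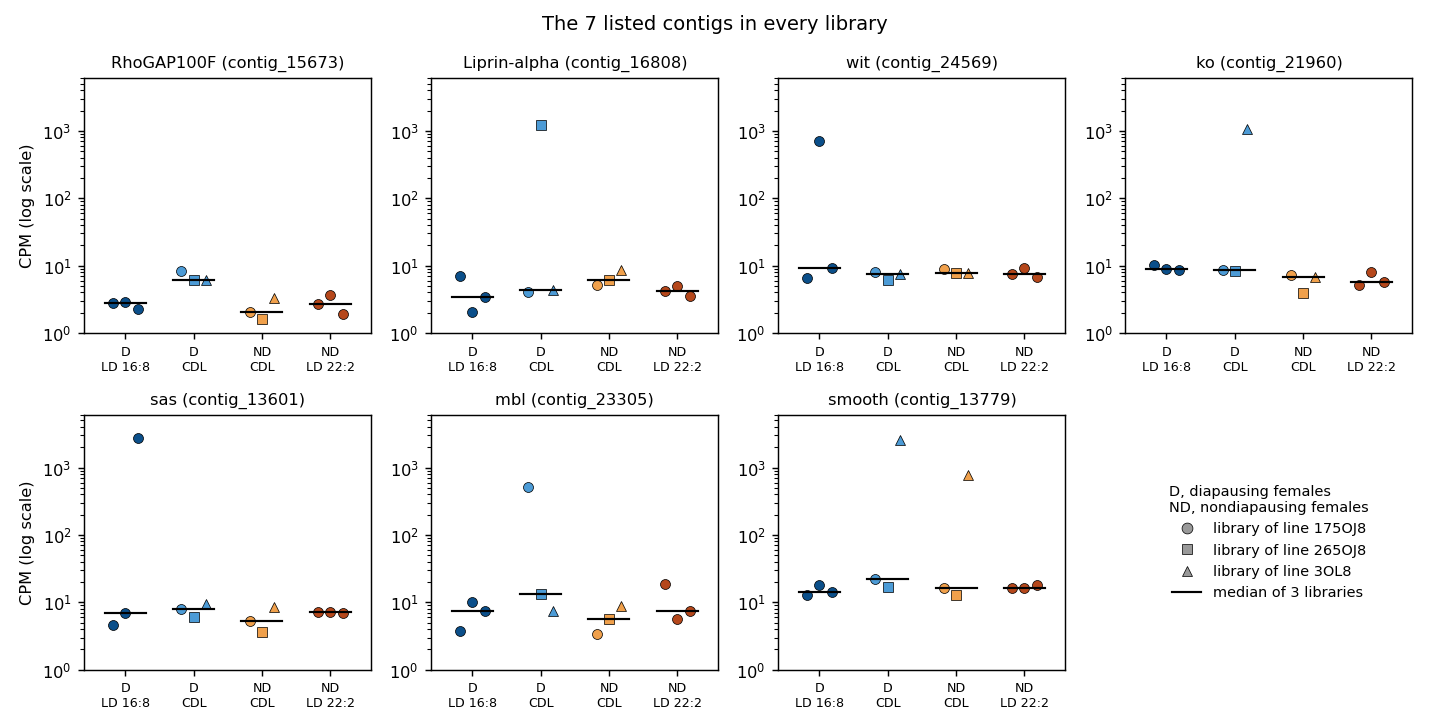
CPM (log scale) of each listed contig in every library, by group (D, diapausing; ND, nondiapausing), with the isofemale line as the symbol and the median of 3 libraries as a bar. For *Liprin-alpha*, *wit*, *ko*, *sas*, and *mbl* 1 library stands 27.4 to 296 times above the next, *smooth* is high in both 3OL8 libraries, and *RhoGAP100F* is highest in the 3 diapausing CDL libraries.

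In the comparison of LD 16:8 with the CDL in diapausing females, all 7 listed contigs had an FDR below 0.05, 2 of them higher at LD 16:8 (*wit* and *sas*) and 5 lower, where 0.403% of all contigs did. Nothing is read from this count, since the list was made on that contrast. With the high library of each contig left out (both 3OL8 libraries for *smooth*), the log2 fold changes of the other 6 listed contigs lay between -0.57 and 0.13, and that of *RhoGAP100F*, from which no library was left out, was -1.37 (SE 0.35). The QL test, which carries the uncertainty of each contig's own spread, called 0 of the 7 with all libraries (0.0064% of all contigs), although 7 had an unadjusted *P* under 0.05. With the libraries left out, the likelihood ratio test called 1, *RhoGAP100F*, which was itself chosen on this contrast. Isofemale line as a term left 3 of the 7 called. The yolk protein genes also moved with this contrast, with log2 fold changes of -1.52 for *Yp2* (SE 0.36, FDR = 0.011) and -1.51 for *Yp3* (SE 0.35, FDR = 0.0104). The study had reported both as lower in this same contrast, so these values are no independent evidence. The QL test called neither (QL FDR = 0.108 for each). Their part in the values of the listed contigs was not tested.

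**Figure D2:**
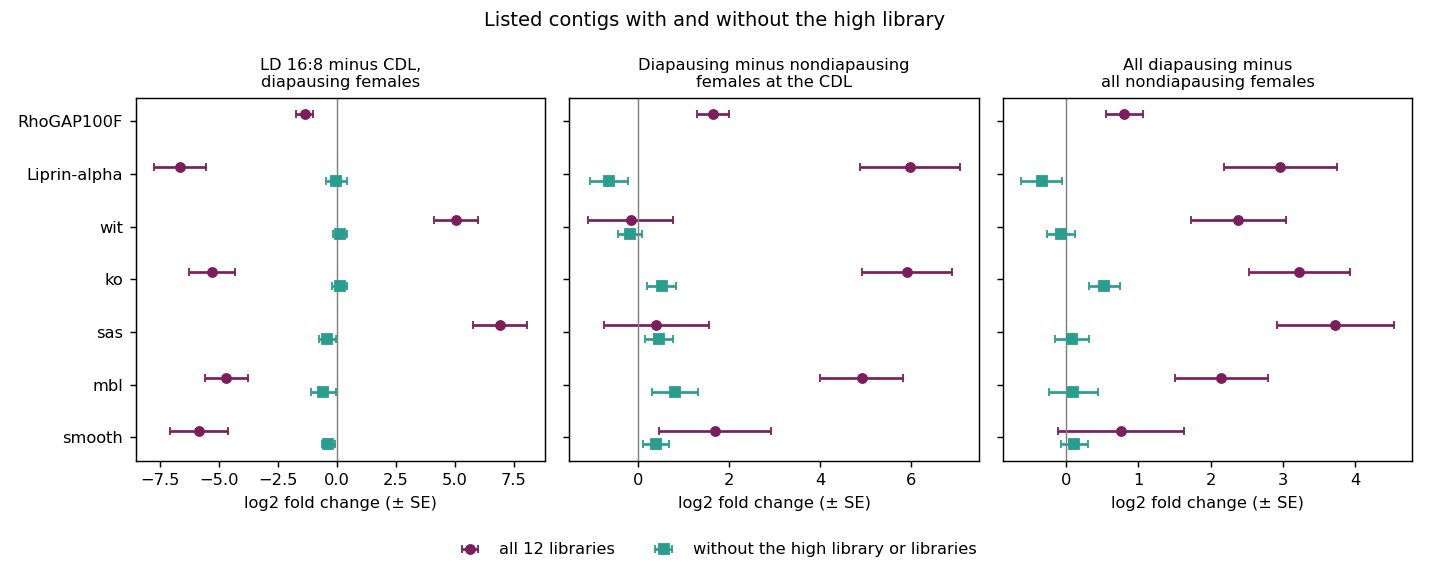
Log2 fold change of each listed contig (± SE) with all 12 libraries (circles) and without its high library or libraries (squares), for LD 16:8 minus CDL in diapausing females, diapausing minus nondiapausing females at the CDL, and all diapausing minus all nondiapausing females. Without the high libraries the day length differences of *Liprin-alpha*, *wit*, *ko*, *sas*, *mbl*, and *smooth* lie between -0.57 and 0.13; *RhoGAP100F* has no square because no library was left out.

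*RhoGAP100F* encodes the fly Syd-1 protein, a GTPase-activating-like protein that helps to start the assembly of active zones. Its contig (contig_15673) was higher in diapausing females at the CDL than in the other 3 groups. It had 2.83, 2.90, and 2.24 CPM in diapausing females at LD 16:8, against 8.33, 6.21, and 6.04 CPM in diapausing females at the CDL. Nondiapausing females had 2.08, 1.62, and 3.27 CPM at the CDL, against 2.71, 3.65, and 1.94 CPM at LD 22:2. The 3 diapausing CDL libraries thus lay above all 9 others, which overlapped among themselves. The contig was chosen on the contrast within diapausing females, so part of this order was set by the choice. In that contrast 10.9% of all contigs did not overlap in either direction, and the share with the order over all 4 groups was not counted. These are small counts, 25 to 41 reads in the diapausing CDL libraries and 11 to 21 in the others.

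Between diapausing and nondiapausing females at the CDL, *RhoGAP100F* was higher by a log2 fold change of 1.65 (SE 0.35, FDR = 1.08e-05, QL FDR = 9.0e-04). It was higher in 3 of 3 isofemale lines, by log2 ratios of 2.00 in 175OJ8, 1.94 in 265OJ8, and 0.89 in 3OL8. The diapausing CDL libraries of this contrast also entered the one on which the contig was chosen. Over all diapausing and all nondiapausing females the log2 fold change was 0.81 (SE 0.26, FDR = 0.00314), the 2 sets overlapped, and without TMM scaling it was 0.46 and not called. In nondiapausing females the difference between the CDL and LD 22:2 was -0.32 (SE 0.38, FDR = 0.9997), and the interaction of diapause state and light cycle was -1.05 (SE 0.51, FDR = 0.467).

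*Liprin-alpha* encodes an active zone scaffold that also takes part in the transport of synaptic vesicle cargo along axons. Its listed contig (contig_16808) had 6.96, 2.07, and 3.47 CPM in diapausing females at LD 16:8, against 4.07, 1241, and 4.35 CPM in diapausing females at the CDL. Nondiapausing females had 5.21, 6.04, and 8.61 CPM at the CDL, against 4.27, 5.03, and 3.6 CPM at LD 22:2. The one high value, 6190 reads in the CDL library of line 265OJ8, compares with 10 to 41 reads in the other 11 libraries. Between diapausing and nondiapausing females at the CDL the log2 fold change was 5.97 (SE 1.10, FDR = 5.57e-05) with that library and -0.62 (SE 0.42, FDR = 0.226) without it. The FDR of the same contrast with the replicate block, which pairs the libraries of each line, was 0.485. Over all diapausing against all nondiapausing females the value was 2.96 (SE 0.78, FDR = 8.95e-04) with the library and -0.33 (SE 0.28, FDR = 0.300) without it.

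The other contigs of *Liprin-alpha* had no high library. Contig_17001 was the only one of the 18 contigs called lower in diapausing females over all groups. It had 6.74, 5.39, and 5.51 CPM in diapausing females at LD 16:8 and 6.91, 9.02, and 7.74 CPM in those at the CDL, against 12.96, 10.8, and 10.1 CPM at the CDL and 9.54, 13.02, and 11.3 CPM at LD 22:2 in nondiapausing females. All 6 diapausing libraries lay below all 6 nondiapausing ones, an order found for 20% of all contigs in that direction and 36.9% in either. The log2 fold change was -0.73 (SE 0.18, FDR = 1.15e-04, QL FDR = 7.22e-04). At the CDL alone it was -0.53 (SE 0.25, FDR = 0.067), lower in 3 of 3 lines, and was called without TMM scaling (-0.87). Contig_12947, at 1.43 to 3.6 CPM, was not called in any of the 5 contrasts, and its log2 fold change over all diapausing against all nondiapausing females was -0.29 (SE 0.26), except that without TMM scaling it was called lower at -0.63.

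*wit*, or wishful thinking, encodes a BMP type II receptor through which the muscle signal makes the neuromuscular junction grow. The listed contig (contig_24569) had 6.52, 704, and 9.38 CPM in diapausing females at LD 16:8, against 8.13, 6.21, and 7.5 CPM in diapausing females at the CDL. Nondiapausing females had 8.94, 7.66, and 7.72 CPM at the CDL, against 7.55, 9.37, and 6.78 CPM at LD 22:2. Apart from LD 16:8 replicate 2, with 3395 reads, the 4 groups overlapped. Over all diapausing against all nondiapausing females the log2 fold change was 2.38 (SE 0.66, FDR = 0.0012) with that library and -0.070 (SE 0.19, FDR = 0.768) without it, and with the replicate block it was 0.75 (FDR = 0.236).

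Both other contigs of *wit* were higher in diapausing females. Contig_17926 had 6.96, 4.56, and 5.30 CPM in diapausing females at LD 16:8 and 6.30, 7.82, and 7.01 CPM in those at the CDL, against 3.28, 2.80, and 3.56 CPM at the CDL and 2.99, 1.91, and 2.77 CPM at LD 22:2 in nondiapausing females. Every diapausing library lay above every nondiapausing one, an order found for 16.9% of all contigs in that direction. The order did not hold on plain library size, without TMM scaling. LD 16:8 replicate 2 had 22 of 5764157 reads, against 12 of 2986505 in the nondiapausing 3OL8 library. The log2 fold change was 1.13 (SE 0.22, FDR = 5.43e-07, QL FDR = 1.42e-04), and at the CDL alone it was 1.15 (SE 0.30, FDR = 4.74e-04), higher in 3 of 3 lines. Contig_17215 had 7.5 to 17.0 CPM in diapausing and 4.75 to 9.23 CPM in nondiapausing females, which overlapped, with a log2 fold change of 0.70 (SE 0.23, FDR = 0.00431), and with one of 0.80 at the CDL alone (SE 0.32, FDR = 0.030). Without TMM scaling neither was called (0.36 and 0.45). Differences between the contigs of *wit* were not tested.

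*ko*, or knockout, is required for the guidance of motor axons to their muscles in *D. melanogaster* embryos. The listed contig (contig_21960) had 10.2, 8.92, and 8.57 CPM in diapausing females at LD 16:8, against 8.74, 8.22, and 1065 CPM in diapausing females at the CDL. Nondiapausing females had 7.15, 3.98, and 6.83 CPM at the CDL, against 5.13, 8.16, and 5.81 CPM at LD 22:2. The high library was that of line 3OL8, with 4407 reads against 23 to 48 in the other 11 libraries. Of the 6 listed contigs with high libraries, *ko* was the one still called by diapause state without them, at a much smaller size. The log2 fold change over all diapausing against all nondiapausing females was 3.22 (SE 0.70, FDR = 5.92e-05) with the library and 0.54 (SE 0.21, FDR = 0.0218, QL FDR = 0.0318) without it. All 5 remaining diapausing libraries lay above all 6 nondiapausing ones, the closest being 8.22 and 8.16 CPM. With all 12 libraries, such an order in that direction was found for 16.9% of all contigs. On plain library size, without TMM scaling, the order did not hold. LD 22:2 replicate 2 had 47 of 5161909 reads, against 43 of 5764157 in LD 16:8 replicate 2. Whether the call holds without both the library and TMM scaling was not tested. At the CDL alone the log2 fold change was 0.52 without the library (SE 0.32, FDR = 0.177).

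The other 2 contigs of *ko* were also higher in diapausing females. Contig_9670 had 7.17, 8.09, and 7.95 CPM in diapausing females at LD 16:8 and 6.10, 6.62, and 5.32 CPM in those at the CDL, against 4.02, 2.65, and 4.16 CPM at the CDL and 2.85, 1.39, and 5.67 CPM at LD 22:2 in nondiapausing females. Its log2 fold change over all diapausing against all nondiapausing females was 0.98 (SE 0.26, FDR = 3.67e-04), and only 1 nondiapausing library, LD 22:2 replicate 3, exceeded any diapausing one. Contig_16550 had 7.12 to 12.4 CPM in diapausing and 5.95 to 8.10 CPM in nondiapausing females, with a log2 fold change of 0.53 (SE 0.19, FDR = 0.00845) that was not called without TMM scaling (0.19). All 3 contigs of *ko* were thus called higher in diapausing females, where 33.4% of all contigs were. None of the 3 was called between light cycles when the high library was left out, and their log2 fold changes were 0.12 to 0.42 in diapausing females and -0.10 to 0.16 in nondiapausing females.

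*sas* encodes a cell-surface protein of epithelia and neurons that is a ligand of the receptor tyrosine phosphatase Ptp10D in *D. melanogaster*. Its listed contig (contig_13601) had the highest ratio of the 7. It had 4.57, 7.05, and 2789 CPM in diapausing females at LD 16:8, against 7.93, 6.01, and 9.43 CPM in diapausing females at the CDL. Nondiapausing females had 5.36, 3.68, and 8.61 CPM at the CDL, against 7.26, 7.12, and 6.91 CPM at LD 22:2. LD 16:8 replicate 3 alone held 13675 reads, against 21 to 51 in the other 11 libraries. Without it the log2 fold change by light cycle in diapausing females was -0.41 (SE 0.36) in place of 6.90 (SE 1.14), and over all diapausing against all nondiapausing females it was 0.09 (SE 0.23, FDR = 0.750) in place of 3.72 (SE 0.81, FDR = 9.28e-05).

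The other contig of *sas* (contig_6655) came nearest to a difference between light cycles among the 11 contigs that were not listed. It had 3.91, 5.6, and 6.12 CPM in diapausing females at LD 16:8, against 9.15, 9.42, and 6.53 CPM in diapausing females at the CDL. Nondiapausing females had 4.17, 4.27, and 5.64 CPM at the CDL, against 2.28, 2.95, and 3.18 CPM at LD 22:2. In both types of female the CDL libraries lay above those of the other light cycle without overlap. Of all contigs, 10.9% in diapausing and 12.6% in nondiapausing females did not overlap in either direction, and the share with both orders was not counted. The log2 fold changes of -0.69 (SE 0.28, FDR = 0.481) and 0.70 (SE 0.32, FDR = 0.777) were not called, nor was the interaction of -1.39 (SE 0.43, FDR = 0.0745, QL FDR = 0.204). By state it was higher in diapausing females, by 0.88 at the CDL (SE 0.28, FDR = 0.00555, higher in 3 of 3 lines) and by 0.89 over all groups (SE 0.21, FDR = 7.64e-05). Without TMM scaling the value at the CDL was 0.53 and not called, and that over all groups was 0.55 and still called.

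*mbl*, or muscleblind, encodes a splicing regulator of muscle and photoreceptors. Its listed contig (contig_23305) had 3.70, 9.96, and 7.34 CPM in diapausing females at LD 16:8, against 519.6, 13.2, and 7.5 CPM in diapausing females at the CDL. Nondiapausing females had 3.43, 5.74, and 8.91 CPM at the CDL, against 18.9, 5.73, and 7.33 CPM at LD 22:2. The high library was that of line 175OJ8, with 2556 reads, and the next highest was LD 22:2 replicate 1, with 133. The neuronal sodium channel gene *para* (contig_5578), named here as a marker of neurons, was also highest in that diapausing CDL library, with 134 CPM against 1.04 to 7.42 CPM in the other 11. *Ih* (contig_27300), a channel gene taken as a further such marker, was high in another library, LD 22:2 replicate 3, with 769.9 CPM against 1.09 to 6.73 CPM elsewhere. The study had reported *para* and *Ih* as changed with day length in these same libraries, so neither is an independent check of tissue. Whether *mbl* and *para* share a source was not tested. By diapause state, with all libraries, 33.4% of all contigs were called higher over all groups and 25.7% at the CDL. Without their high libraries, *para* was higher in diapausing females, by 0.99 over all groups (SE 0.36, FDR = 0.0109) and 1.37 at the CDL (SE 0.55, FDR = 0.0279), whereas *Ih* had log2 fold changes of 0.074 (SE 0.35, FDR = 0.865) and 0.11 (SE 0.47, FDR = 0.857). The part of such a difference in the state results of the 18 contigs was not tested. Without the library the log2 fold change of *mbl* at the CDL was 0.82 (SE 0.51, FDR = 0.178) in place of 4.91 (SE 0.91, FDR = 2.37e-05), and with the replicate block it was 2.11 (FDR = 0.0699).

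The 4 other contigs of *mbl* lay between 1.04 and 12.8 CPM in all libraries. Contig_24515 was higher in diapausing females, with 7.39, 5.81, and 5.30 CPM at LD 16:8 and 6.10, 4.81, and 3.63 CPM at the CDL, against 1.04, 2.50, and 4.45 CPM at the CDL and 4.70, 2.78, and 2.35 CPM at LD 22:2 in nondiapausing females. The sets overlapped. Its log2 fold change was 0.94 over all groups (SE 0.28, FDR = 0.0018, QL FDR = 0.00891) and 0.98 at the CDL (SE 0.42, FDR = 0.0385, QL FDR = 0.0644), where it was higher in 2 of 3 lines. Without TMM scaling neither was called (0.599 and 0.64). Contig_9305, contig_24143, and contig_29612 had log2 fold changes of 0.27 to 0.40 over all groups and were not called in any of the 5 contrasts, except that contig_9305 was called without the nondiapausing 3OL8 library (0.61 over all groups and 0.92 at the CDL). In the high library of the listed contig, contig_24143 was also at its highest, with 7.12 CPM against at most 6.08 CPM elsewhere, the only one of the 11 other contigs for which this was so.

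*smooth* encodes an RNA-binding protein related to the heterogeneous nuclear ribonucleoproteins, with a part in axon guidance and feeding behaviour in *D. melanogaster*. Its contig (contig_13779) had 13.1, 17.8, and 14.3 CPM in diapausing females at LD 16:8, against 21.9, 16.6, and 2576 CPM in diapausing females at the CDL. Nondiapausing females had 16.5, 12.7, and 779 CPM at the CDL, against 16.2, 16.1, and 18.1 CPM at LD 22:2. Both libraries of line 3OL8 were high, with 10655 and 2623 reads, and the lower of them was 35.5 times the highest of the other 10. The same order, both 3OL8 libraries at 5 times or more every other library, held for 24 contigs of all 31233. The 4 CDL libraries of the other lines had 12.7 to 21.9 CPM, beside 13.1 to 18.1 CPM at LD 16:8 and LD 22:2, so that the high values at the CDL were those of line 3OL8 alone. Line 3OL8 was sequenced at the CDL only, and whether it is also high at another light cycle was not tested.

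Without both 3OL8 libraries the log2 fold changes of *smooth* were -0.36 (SE 0.26) between light cycles in diapausing females, -0.21 (SE 0.26, FDR = 0.9998) in nondiapausing females, and 0.12 (SE 0.18, FDR = 0.581) over all diapausing against all nondiapausing females. With them, the difference between light cycles was -5.85 (SE 1.23) in diapausing and 4.0 (SE 1.23, FDR = 0.429) in nondiapausing females. At the CDL, *smooth* was higher in diapausing females in 3 of 3 lines, by log2 ratios of 0.41 in 175OJ8, 0.39 in 265OJ8, and 1.73 in 3OL8. The contrast was not called without the replicate block (1.69, SE 1.22, FDR = 0.259) and was called with it (0.88, FDR = 0.0202). Without the diapausing 3OL8 library alone the value turned to -3.80 (FDR = 0.00379), and without both 3OL8 libraries it was 0.40 (SE 0.28, FDR = 0.248).

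For the 5 genes with a single high library, the other contigs with the same hit had no such high value there. In the library in which each listed contig was high, the 11 other contigs had 3.21 to 9.15 CPM, and 1 of the 11 was higher there than in every other library. Whether contigs with one hit are pieces of 1 transcript, splice forms, or copies is not given by the files.

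Counted together, 0 of the 11 other contigs were called between light cycles in diapausing females, 0 in nondiapausing females, and 0 for the interaction, in the likelihood ratio and in the QL test. The numbers with an unadjusted *P* under 0.05 were 1, 2, and 1 in both tests, and DESeq2 gave an adjusted *P* to 4 of the 11 for the interaction, none of them under 0.05, and to 0 for the other 2. Of all contigs, the likelihood ratio test called 0.403%, 0.224%, and 1.07% in these 3 contrasts, and the QL test 0.0064%, 0.0032%, and 0.186%. Their groups did not overlap in 3 of 11 between light cycles in diapausing females and in 2 of 11 in nondiapausing females, where 10.9% and 12.6% of all contigs had such an order. The median log2 fold change of the 11 was 0.01 in diapausing and 0.02 in nondiapausing females, beside -0.03 and 0.00 over all contigs. Of the 7 listed contigs, 0 were called between light cycles in nondiapausing females by either test, with 1 at an unadjusted *P* under 0.05 in each.

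By diapause state, 7 of the 11 other contigs were called over all diapausing against all nondiapausing females, a comparison in which light cycle differed too. Of these, 6 were higher (both of *wit*, both of *ko*, that of *sas*, and contig_24515 of *mbl*) and 1 was lower (contig_17001 of *Liprin-alpha*). The QL test, DESeq2, and the replicate block each gave the same numbers. The share called is close to the 64.4% of all contigs (63.5% in the QL test). The median log2 fold change was 0.53, beside 0.077 over all contigs. In every alternative run, contig_17926 of *wit* (adjusted *P* 3.28e-07 to 6.75e-04), contig_9670 of *ko* (1.64e-07 to 0.0216), contig_6655 of *sas* (2.28e-05 to 0.0184), and contig_17001 of *Liprin-alpha* (1.25e-08 to 0.0016) stayed called over all groups. Without TMM scaling the calls were 3 higher and 2 lower, and contig_24143 and contig_29612 of *mbl* changed sign without being called in either. At the CDL alone 4 of the 11 were called, all higher, where 49.5% of all contigs were called, 25.7% higher and 23.7% lower, with 3 in the QL test (48.4% of all contigs), 2 with DESeq2, and, without TMM scaling, 1 higher and 1 lower. Of the 7 listed contigs, 6 were called over all groups with all libraries and 2, *RhoGAP100F* and *ko*, without the high libraries. At the CDL these counts were 4 and 1. The CDL count was 2 of the 11 without the diapausing library of line 265OJ8 and 2 without its nondiapausing library, and 3 to 5 with any other single library left out.

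**Figure D3:**
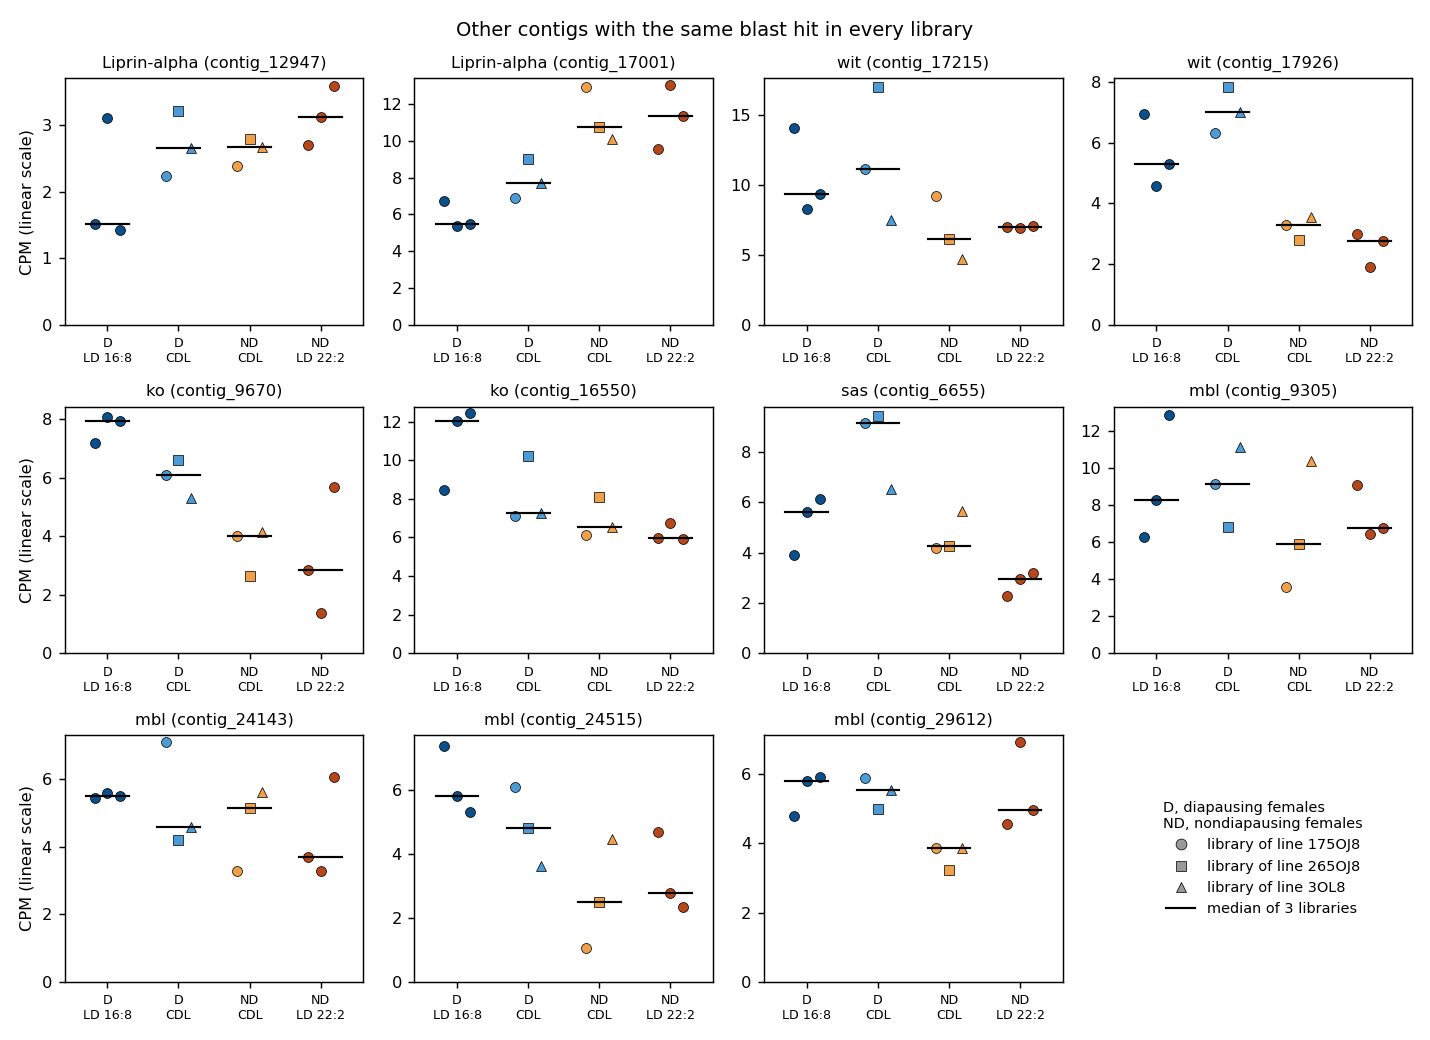
CPM (linear scale) of the 11 other contigs with the same blast hits in every library, by group, with the isofemale line as the symbol and the median of 3 libraries as a bar. The highest library of a contig is at most 1.21 times the next. After TMM scaling, contig_17926 of *wit* is higher in all 6 diapausing than in all 6 nondiapausing libraries, and contig_17001 of *Liprin-alpha* is lower in all 6.

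**Figure D4:**
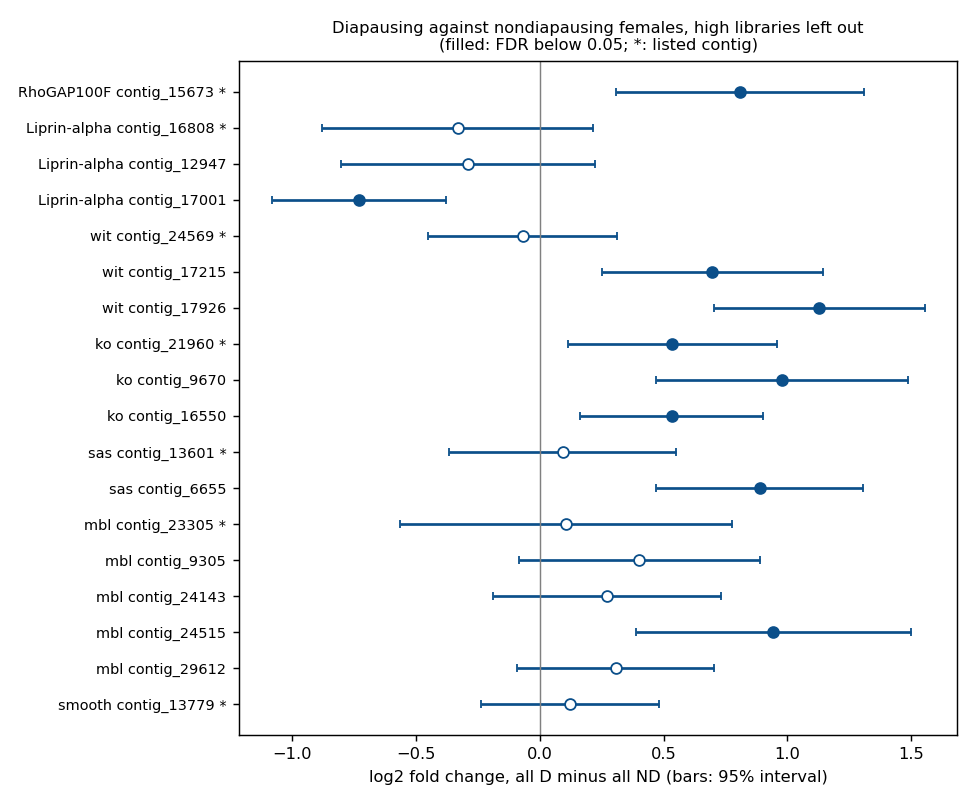
Log2 fold change of all diapausing minus all nondiapausing females for the 18 contigs, each without its high library or libraries, with 95% intervals from the SE. Filled points had an FDR below 0.05: 8 higher (*RhoGAP100F*, 2 of *wit*, 3 of *ko*, 1 of *sas*, 1 of *mbl*) and 1 lower (contig_17001 of *Liprin-alpha*).

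The term for a light cycle effect that differs by diapause state (the interaction) was called for 5 of the 7 listed contigs, *Liprin-alpha*, *wit*, *ko*, *sas*, and *smooth*, where 1.07% of all contigs were called. Since it shares the diapausing libraries on which the list was made, this is no independent evidence. The QL test called 0 of the 7, with 7 at an unadjusted *P* under 0.05. Without the high libraries both tests called 0 of the 7, with 1 at an unadjusted *P* under 0.05, and the interaction values of the other 6 apart from *RhoGAP100F* lay between -0.61 and 0.29.

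A further 7 contigs had been listed for axon, synapse, dendrite, or neuron projection roles after passing the day length test in one of the 2 types of female. They were *CG9098*, *spen*, *Abl*, *Dichaete*, *fz2*, *plexB*, and *Lsp2*, and again their calls by light cycle are no independent evidence. Of these, 4 had a single high library (*CG9098*, *spen*, *Dichaete*, and *plexB*). Without these libraries 5 of the 7 were called over all diapausing against all nondiapausing females, 3 higher and 2 lower. Of all contigs, 64.4% were called with all libraries, 33.4% higher and 31% lower, so nothing is read from this count. *fz2*, a Wnt receptor, was higher in every diapausing library, an order found for 16.9% of all contigs in that direction. It had 122 to 209 CPM in diapausing and 6.69 to 56.5 CPM in nondiapausing females and a log2 fold change of 3.24 (SE 0.29, FDR = 2.52e-23). *Lsp2*, a larval storage protein of the fat body and so no neuronal gene by its product, was higher by 4.07 (SE 0.43, FDR = 1.39e-15). *plexB*, a semaphorin receptor of axon guidance, had a log2 fold change of -1.44 without its high library (SE 0.21, FDR = 3.24e-11), and *CG9098* one of -0.59 (SE 0.26, FDR = 0.0375). *Dichaete*, a Sox transcription factor of the embryonic nervous system, was higher by 1.05 without its high library (SE 0.29, FDR = 4.85e-04). *spen*, at -0.11 without its high library (SE 0.17, FDR = 0.601), and *Abl*, at -0.0046 (SE 0.43, FDR = 0.991), were not called.

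The contigs with the profile most like that of each listed contig were taken by Pearson's *r* of log2 CPM, over 12 libraries or over the 11 others where 1 library was high. Libraries share line, light cycle, and depth, and these values are descriptions without a test. For *RhoGAP100F* they were contig_3468 (*r* = 0.905) and contig_17235 (*r* = 0.901) over 12 libraries. For *Liprin-alpha* they were contig_23493 (0.949) and contig_4776 (0.899), for *wit* contig_1396 (0.922) and contig_24901 (0.866), for *ko* contig_2546 (0.941) and contig_18162 (0.919), for *sas* contig_20264 (0.962) and contig_12854 (0.93), and for *mbl* contig_21565 (0.949) and contig_25003 (0.908), all over 11 libraries. For *smooth* they were contig_472 and contig_10048, both at 0.988 over 12 libraries, and this value rests on the 2 libraries of line 3OL8. No gene symbol could be joined to these contigs from the tables used here.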

How the data were processed

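The authors deposited counts of uniquely mapped reads per contig for each of the 12 libraries. Per the labels and the study's methods, SOLiD reads were mapped to the *de novo* transcriptome and counted with HTSeq, without normalization. The 12 rows without a contig name (1 per library) were left out. All 31233 contigs were tested, with no filter on low counts, a choice made here. The fit followed the study's methods, with edgeR 4.0.16 (R 4.3.3): TMM factors, Cox-Reid dispersions, 4 group means, a likelihood ratio test, and Benjamini-Hochberg FDR under 0.05. TMM factors were 0.837 to 0.921 in diapausing and 1.09 to 1.15 in nondiapausing libraries. The biological coefficient of variation was 0.237. Libraries may share a culture, so that the *P* values measure the spread between libraries only.

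Alternatives were the QL test, DESeq2 1.42.0, RLE factors, no TMM, a minimum count of 10, isofemale line as a term, a replicate block, the 6 libraries compared, and each library left out. A contig with 1 library at 5 times or more every other is given with and without it. Leaving out both 3OL8 libraries was added after seeing the data. At the CDL the block is the isofemale line, given by the labels: after removal of group means, the D and ND libraries of 175OJ8, 265OJ8, and 3OL8 correlated at 0.201, 0.137, and 0.302 over 30474 contigs.

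The members and lists were chosen with earlier results of these data known. Named are the listed contigs, all contigs with the same hit, the 2 contigs most like each (mean of at least 1 CPM, prior count 2), the further list, and 4 markers (*Yp2*, *Yp3*, *para*, *Ih*). The hits matched 0 of the 15263 genes of the reference table, so that other synapse and muscle genes were not analysed here. The fits were tested on simulated data.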

Additional observations from a re-analysis of the deposited data

Results flagged for a closer look

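The effect of light cycle differed between diapausing and nondiapausing females for 5 listed contigs by the interaction term of the likelihood ratio test, which shares the libraries on which they were listed. The interaction log2 fold change was -7.25 for *Liprin-alpha* (FDR = 0.0071), 5.0 for *wit* (FDR = 0.0344), -5.20 for *ko* (FDR = 0.0431), 7.18 for *sas* (FDR = 0.012), and -9.85 for *smooth* (FDR = 9.46e-04). The QL test called none of them, with an FDR of 0.172, 0.254, 0.271, 0.189, and 0.109 in the same order of genes. Without the high library, or both 3OL8 libraries for *smooth*, the values were -0.61 (FDR = 0.799) for *Liprin-alpha*, 0.080 (FDR = 0.984) for *wit*, 0.22 (FDR = 0.936) for *ko*, -0.069 (FDR = 0.977) for *sas*, and -0.15 (FDR = 0.951) for *smooth*.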

How the results depend on the processing

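Of the 1763 fold changes recomputed for the named contigs under the alternatives, 1552 kept their direction and side of the threshold, 106 lost and 17 gained a call, and 88 changed sign. Of these 88, 70 were called neither with all libraries nor under the alternative, among them 7 under line as a term and 7 without TMM scaling. The other 18, called in at least one of the fits, came from leaving out a high library: *Liprin-alpha* gave -0.62 at the CDL by state and -0.33 over all groups, *wit* -0.070 over all groups, *ko* 0.12 between light cycles in diapausing females and 0.22 in the interaction (0.30 without both 3OL8 libraries), and *sas* -0.41 and -0.069 in the same contrasts. *smooth* gave -3.80 at the CDL by state and -1.98 over all groups without the diapausing 3OL8 library. Of the 18, 7 are repeats, since the fit without a contig's single high library is also counted as the fit without that replicate. The totals of 1763 and 88 hold such repeats too. The highest or lowest values on the other side, with another library left out, were 6.56 and 3.26 for *Liprin-alpha*, 2.67 for *wit*, -5.86 and -5.77 for *ko*, 7.48 and 7.76 for *sas*, and 5.90 and 2.87 for *smooth*. Between light cycles in diapausing females the QL test called 2 contigs and line as a term 261, in place of 126. Of the listed contigs, in place of 7, the QL test called 0, line as a term 3, the fit without both 3OL8 libraries 4, and the fits without the high libraries 1. In nondiapausing females the QL test called 1 contig, DESeq2 30, and the 6 libraries alone 146, in place of 70, with 1 listed contig in the last. For the interaction the QL test called 58 contigs in place of 334 and 0 listed contigs in place of 5, with 1 under line as a term, 1 without both 3OL8 libraries, and 0 without the high libraries. By state at the CDL, leaving out the high libraries left 1 listed contig of 4. Of the 4 other contigs called there, DESeq2 left 2 and no TMM scaling left 1, contig_17926 of *wit*. Without TMM scaling contig_17001 of *Liprin-alpha* was called as well, lower in diapausing females. Over all groups the replicate block left 2 of the 6 listed calls, *RhoGAP100F* and *ko*, and leaving out the high libraries also left 2. The block cannot be separated from either light cycle comparison or the interaction, and LD 16:8 and LD 22:2 libraries of one number, with correlations of -0.020, -0.111, and 0.057, share only a number. DESeq2 gave no adjusted *P* to listed contigs other than *RhoGAP100F* by state.

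With each library left out in turn, 54 (without LD 16:8 replicate 2) to 199 (without LD 16:8 replicate 3) contigs, 1 (without LD 16:8 replicate 2) to 7 listed contigs, and 0 others were called between light cycles in diapausing females, and 17 to 97, 0 to 1, and 0 in nondiapausing females. The interaction gave 166 to 441, 2 to 4, and 0 to 1. By state the ranges were 12813 to 15747, 3 to 5, and 2 to 5 at the CDL and 19036 to 19749, 5 to 7, and 7 to 8 over all groups. The cause of these shifts was not tested. The 11 other contigs had 7 to 87 reads per library, and the size of light cycle difference that this depth can show was not tested.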
